A study of Mus musculus with 35 samples.

Results

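The MS4A family (membrane-spanning 4-domains, subfamily A) was followed as 8 transcripts, Ms4a4a, Ms4a4c, Ms4a6b, Ms4a6c, Ms4a6d, Ms4a7, Ms4a8a and Ms4a14, taken by symbol from the 54735 gene symbols of the per-sample count files. All 8 were among the 13421 genes that passed the filter on low counts (more than 1 CPM, the counts scaled by library size, in at least 5 samples). The samples were 35 preparations of hepatic macrophages (macs) sorted from the livers of C57Bl/6J mice, which per the study's methods were males put on their diets at 5 weeks of age. Resident Kupffer cells (ResKCs, sorted as CLEC4F+TIM4+) came from mice fed a standard diet (SD) for 12 weeks (7 samples) or 24 weeks (6 samples) and from mice fed a Western diet (WD), which is rich in fat, cholesterol and sugar and causes metabolic-associated fatty liver disease, for 12 weeks (5 samples) or 24 weeks (6 samples). Monocyte-derived Kupffer cells (moKCs, CLEC4F+TIM4-, 5 samples) and CLEC4F- macs (CLEC4F-TIM4-, 6 samples) were sorted after 24 weeks of WD alone. No SD counterpart of either recruited population was among the samples. Diet could therefore be compared in ResKCs only. One label field gave a standard diet for the 5 WD samples at 12 weeks, whose titles and descriptions gave a Western diet, and the titles were followed.

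MS4A proteins cross the membrane 4 times and sit in the plasma membrane or in endosomes, where several of them associate with immune receptors. The best known is MS4A1 (CD20), the B cell antigen targeted by therapeutic antibodies, and MS4A2 is the beta chain of the high-affinity IgE receptor. MS4A4A, MS4A6 and MS4A7 proteins are mostly found in monocytes and macrophages, where MS4A4A has been linked to the C-type lectin Dectin-1 and to TREM2, a lipid receptor of disease-associated macrophages.

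In GENCODE M21 on GRCm38 (mm10) the 8 genes lay within 537 kb of chromosome 19, between 11067471 and 11604849. In map order these were Ms4a8a (chr19:11067471-11081102), Ms4a14 (chr19:11301249-11314454) and Ms4a7 (chr19:11321039-11336146), all on the minus strand, followed by Ms4a4a (chr19:11375523-11392790), Ms4a4c (chr19:11404770-11427246), Ms4a6c (chr19:11469366-11482192) and Ms4a6b (chr19:11516512-11531256) on the plus strand, and last Ms4a6d (chr19:11586604-11604849) on the minus strand. Of all 75-base stretches in the transcripts of a gene, the read length of the study, none in Ms4a4a, Ms4a7, Ms4a8a or Ms4a14 occurred in a transcript of another gene, whereas 0.632% in Ms4a6b, 0.408% in Ms4a6d and 3.78% in Ms4a4c did so, those of Ms4a4c all in Ms4a4b. For Ms4a6c the share was 47.7%, because its exons overlap those of BE692007, a transcript on the opposite strand that held 6.93 to 24.6 CPM over the 35 samples. Whether the counting used strand is not given in the sources used here, so counts of Ms4a6c are less certain than those of the other members.

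Promoter sequences (250 bases before to 50 bases after the start site, RefSeq GRCm38.p6, 5′ to 3′ on the strand of the gene) were found for 7 of the 8 members, with 2 start sites for Ms4a7, and none was used for Ms4a6d. The first pair shown belongs to the member with the widest range between the macrophage populations, Ms4a4a (chr19:11375238-11375537, plus strand), and to the single member with the opposite direction, Ms4a8a (chr19:11081054-11081353, minus strand). The second pair belongs to Ms4a6b (chr19:11518309-11518608) and Ms4a6c (chr19:11469118-11469417), both on the plus strand, which had the longest identical stretch of all 35 promoter pairs compared, over the member promoters and that of Ms4a4b, another gene of the family. Capitals mark matches on either strand to 1 of 5 motifs: the PU.1 motif GAGGAAGT, the shorter ETS motif AGGAAGT that lies within it, the AP-1 motif TGANTCA, the interferon element (paired GAAA boxes) and the MAF half-site TGCTGAC.
Ms4a4a: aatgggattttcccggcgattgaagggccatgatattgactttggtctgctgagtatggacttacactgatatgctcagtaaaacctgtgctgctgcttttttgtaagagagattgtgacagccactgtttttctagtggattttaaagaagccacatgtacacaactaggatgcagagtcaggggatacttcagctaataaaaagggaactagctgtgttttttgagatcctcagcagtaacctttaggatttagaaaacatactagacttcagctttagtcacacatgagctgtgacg
Ms4a8a: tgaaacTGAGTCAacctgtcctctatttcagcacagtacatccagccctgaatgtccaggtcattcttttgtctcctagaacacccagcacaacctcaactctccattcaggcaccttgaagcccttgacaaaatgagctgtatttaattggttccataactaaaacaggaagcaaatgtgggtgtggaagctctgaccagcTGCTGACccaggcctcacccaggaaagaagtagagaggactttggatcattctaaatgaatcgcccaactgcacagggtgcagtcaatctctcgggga
Ms4a6b: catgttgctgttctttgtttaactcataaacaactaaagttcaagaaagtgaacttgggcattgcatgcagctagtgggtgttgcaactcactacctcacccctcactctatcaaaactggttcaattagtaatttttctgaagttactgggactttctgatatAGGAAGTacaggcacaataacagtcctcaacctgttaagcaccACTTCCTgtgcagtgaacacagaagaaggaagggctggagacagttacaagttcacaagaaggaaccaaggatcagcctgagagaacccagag
Ms4a6c: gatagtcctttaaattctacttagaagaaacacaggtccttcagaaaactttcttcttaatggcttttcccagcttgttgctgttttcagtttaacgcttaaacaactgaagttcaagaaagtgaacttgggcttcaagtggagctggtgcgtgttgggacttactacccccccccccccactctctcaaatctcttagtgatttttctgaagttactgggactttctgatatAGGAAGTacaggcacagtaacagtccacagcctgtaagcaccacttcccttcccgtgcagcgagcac

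The Ms4a8a window held an AP-1 match beginning 244 bases before the start site and a MAF half-site beginning 48 bases before it. No match was found in the Ms4a4a window. Across the 8 member promoters, the AP-1 letters were present in 3 (Ms4a8a, Ms4a14 and the second start of Ms4a7), against 7.81% of all 32851 promoters of this length. The ETS letters were present in 2 (Ms4a6b and Ms4a6c), against 9.35%, and the MAF half-site in 1, against 4.67%. The PU.1 letters (3.20% of all promoters) and the interferon element (3.44%) were in none of the 8. The Ms4a6b and Ms4a6c promoters shared an unbroken run of 48 bases that includes an ETS match and lies 118 to 71 bases before the start of Ms4a6b and 49 to 2 bases before that of Ms4a6c. The median longest run over the 35 pairs was 8 bases. Over the whole aligned window Ms4a6b and Ms4a6c were 51.2% identical, against a median of 47.3% over the pairs, and the most alike pair was Ms4a4c and Ms4a4b (72.9% identical, longest run 20 bases).

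Libraries held 11568590 to 15163845 counts, and the labels could be checked against the sorted proteins. Timd4, the gene of TIM4, was at 547 to 1358 CPM in all ResKC samples, 2.85 to 30.3 CPM in moKCs and 3.43 to 14.6 CPM in CLEC4F- macs. Clec4f RNA was not absent from the CLEC4F- macs (294 to 5488 CPM, against 7326 to 17500 CPM in the other groups). Cd5l, another KC gene, was also present there, at 940 to 6604 CPM against 6548 to 11970 CPM elsewhere, with overlap. The KC genes Vsig4 (9.63 to 50.7 CPM there against 2747 to 4117 CPM elsewhere) and Folr2 (4.16 to 37.8 against 57.2 to 150.5 CPM) did not overlap. Among the CLEC4F- macs replicate 4 held the most Clec4f, and replicate 1 held the highest sums of the B cell (169 CPM), T and NK cell (19.2 CPM) and conventional dendritic cell (172 CPM) marker lists. Replicate 1 of the moKCs had the highest hepatocyte (3177 CPM), sinusoidal endothelial (1282 CPM) and immediate-early and heat-shock (8396 CPM) sums of its group. The alignment files named in the count tables followed 2 naming schemes, of 22 and 13 samples, whose meaning is not given in the sources used here. The labels do not tie samples to mice. The study's supplement counts mice as n for each population and gives 5 or 6, whereas the SD ResKC group at 12 weeks held 7 samples. Whether each sample was 1 mouse, or populations came from the same mice, is not given in the labels, so p-values measure the spread between these samples.

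Levels can be compared between genes only per length, and on the scale of CPM per kb of exon Ms4a6d ranked first of the 8 members in each of the 6 groups, with 118 ± 10.3 (SD, n = 6) in WD ResKCs at 24 weeks and 144 ± 13.5 (n = 6) in CLEC4F- macs. Ms4a14 ranked last in each group and was at 0.330 ± 0.260 per kb in the same WD ResKCs. In WD ResKCs the order after Ms4a6d was Ms4a6c (53.7 ± 6.64 per kb), Ms4a8a (47.1 ± 5.59), Ms4a6b (15.8 ± 3.08), Ms4a7 (15.4 ± 5.74), Ms4a4c (10.1 ± 3.18), Ms4a4a (5.64 ± 3.25) and Ms4a14. Neighbours in this order lay within 1 SD of each other for Ms4a6b and Ms4a7 and, by the wider SD, for Ms4a7 and Ms4a4c, and Ms4a6c and Ms4a8a differed by about their SDs. In CLEC4F- macs Ms4a4a (110 ± 26.7 per kb) stood at rank 2 beside Ms4a6c (105 ± 14.8), within the SD of either, and Ms4a8a (11.3 ± 4.52) had moved from rank 3 to rank 7. The plot of level per exon length shows the resulting crossing of Ms4a8a and Ms4a4a.

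**Figure D1:**
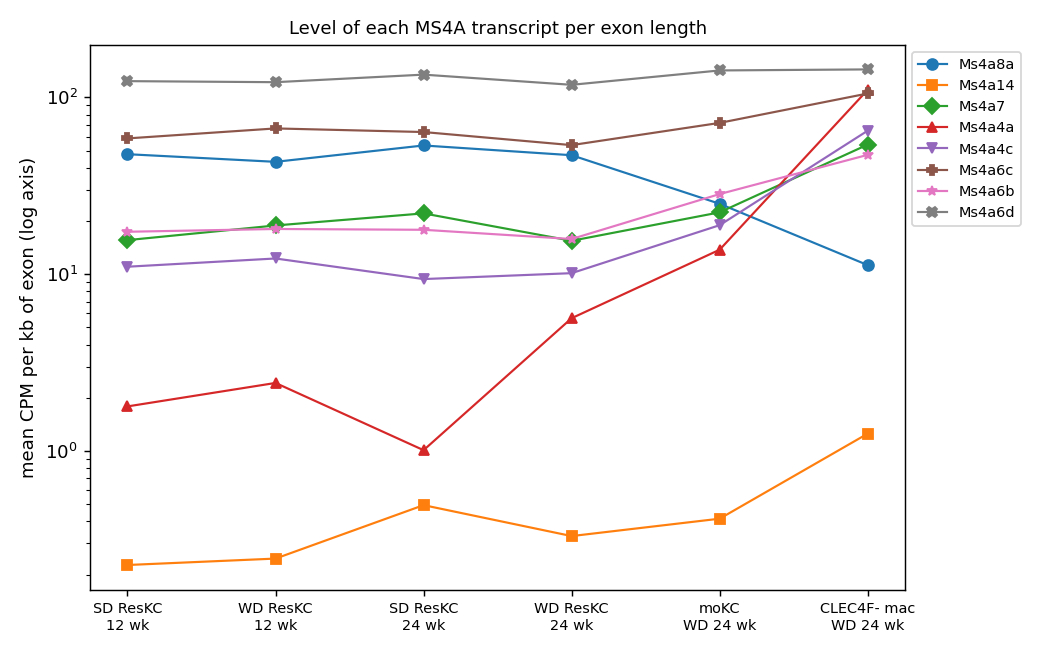
Mean CPM per kb of exon (log axis) of the 8 MS4A transcripts in the 6 sorted groups; each marker is a group mean of 5 to 7 samples and lines only join the points of 1 gene. Ms4a6d is the top line and Ms4a14 the bottom line in all 6 groups, while Ms4a4a rises to 110 per kb and Ms4a8a drops to 11.3 per kb in CLEC4F- macs.

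After 24 weeks of WD, 7 members were higher in the CLEC4F- macs than in the ResKCs and 1, Ms4a8a, was lower, all at an adjusted p under 0.05 (edgeR quasi-likelihood fit, Benjamini-Hochberg over 13421 genes), a limit that 33.0% of all genes passed. With the additional limit of a 2-fold difference, Ms4a4a, Ms4a4c, Ms4a6b, Ms4a7 and Ms4a14 were called lower in ResKCs and Ms4a8a higher, or 6 of 8 against 10.4% of all genes (4.39% higher and 6.04% lower in ResKCs). The median log2 fold change of the 8 members (ResKCs over CLEC4F- macs) was -1.69, beside -0.02 over all genes. The 2 groups did not overlap for any of the 8, which held for 16.0% of all genes. In bulk samples, fewer cells that express a gene and less RNA of it per cell cannot be told apart.

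Ms4a4a, which encodes a tetraspan protein of alternatively activated macrophages, had the widest range of the family. It was at 57.7, 88.9 and 125 CPM (lowest, median and highest of 6) in CLEC4F- macs and at 1.52, 4.61 and 8.67 CPM in WD ResKCs, a 19.6-fold difference of the means (log2 fold change -4.29, SE 0.41, adjusted p = 9.67e-10, edgeR). The lowest CLEC4F- mac sample, replicate 4, still held several times more than the highest ResKC sample. Its neighbour Ms4a4c, a monocyte-associated member, was at 64.7, 115 and 188 CPM in CLEC4F- macs and 11.7, 17.3 and 25.0 CPM in WD ResKCs (log2 fold change -2.68, SE 0.25, adjusted p = 3.95e-10). The 2 groups were thus separated by a wide gap for both Ms4a4 members.

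Ms4a7, a macrophage gene also used to mark recruited macrophages, was at 197, 240 and 291 CPM in CLEC4F- macs and at 34.8, 73.7 and 95.4 CPM in WD ResKCs (log2 fold change -1.81, SE 0.31, adjusted p = 1.68e-05). Every CLEC4F- mac sample lay above every ResKC sample, although the ResKC samples among themselves spread over more than 2-fold. Ms4a14 was low throughout, at 3.23, 5.00 and 7.05 CPM in CLEC4F- macs and 0, 1.43 and 2.45 CPM in WD ResKCs (log2 fold change -1.93, SE 0.55, adjusted p = 0.00662). The ResKC sample at 0, replicate 3, had 0 of 12509544 counts, which allows up to 3 counts, or 0.240 CPM before TMM scaling, for counting error only. The CLEC4F- macs fell into samples at 6.53 to 7.05 CPM (replicates 1 to 3) and at 3.23 to 3.47 CPM (replicates 4 to 6), a division that coincides with the 2 naming schemes. Within the first scheme the difference of mean log2 CPM was -3.31 (3 against 3 samples) and within the second -1.27. The lack of overlap in either follows from that of the pooled samples.

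The Ms4a6 genes, whose products are abundant in myeloid cells, differed less. Ms4a6b was at 170, 217 and 261 CPM in CLEC4F- macs and 54.2, 68.4 and 94.2 CPM in WD ResKCs (log2 fold change -1.58, SE 0.16, adjusted p = 3.53e-09). Ms4a6c was at 181, 218 and 265 CPM against 87.3, 111 and 128 CPM, a log2 fold change of -0.97 (SE 0.11, adjusted p = 3.09e-08) that fell just short of the 2-fold limit. Ms4a6d was at 217, 250.5 and 279 CPM against 169, 210 and 217 CPM (log2 fold change -0.29, SE 0.09, adjusted p = 0.00827). Ms4a6d differed by 1.22-fold, and its highest ResKC sample (217.05 CPM) lay just under its lowest CLEC4F- mac sample (217.22 CPM).

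Ms4a8a was the only member higher in ResKCs than in CLEC4F- macs. It was at 73.4, 85.4 and 101 CPM in WD ResKCs and at 13.5, 17.3 and 34.6 CPM in CLEC4F- macs, a 4.18-fold difference (log2 fold change 2.07, SE 0.20, adjusted p = 1.22e-09). The highest CLEC4F- mac value was that of replicate 4, the sample with the most Clec4f RNA, which also had the lowest Ms4a4a (57.7 CPM), Ms4a6b (170 CPM), Ms4a6c (181 CPM) and Ms4a7 (197 CPM) of its group. Without it the log2 fold change of Ms4a8a was 2.29. Replicate 4 also had the highest Cd5l (6604 CPM) and Folr2 (37.8 CPM) of its group. Its Vsig4 (46.5 CPM) was under that of replicate 5 (50.7 CPM) and far under the 2747 CPM of the lowest CLEC4F+ sample. The part of residual CLEC4F+ cells in the values of replicate 4 was not tested.

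Between WD ResKCs and CLEC4F- macs the pooled samples did not overlap for any of the 8 members. The same direction and lack of overlap within each naming scheme (3 against 3 samples) follow from this and are no separate check. The Ms4a4a difference of mean log2 CPM was -5.25 in the first scheme and -3.62 in the second. Replicate 1 of the CLEC4F- macs, with the highest lymphocyte and dendritic cell sums, also had the highest Ms4a4a (125 CPM), Ms4a4c (188 CPM), Ms4a6b (261 CPM) and Ms4a6c (265 CPM). The conventional dendritic cell list (5 genes, none at 0 in either group) summed to 21.2 to 172 CPM in CLEC4F- macs and 10.1 to 20.9 CPM in WD ResKCs, and the list of monocyte and CLEC4F- mac genes (6 genes, none at 0 in either group) to 623 to 1948 CPM and 37.1 to 122.5 CPM. The T and NK cell list (6 genes, of which 3 passed the filter and none was at 0 throughout either group) summed to 5.05 to 19.2 CPM in CLEC4F- macs and 1.07 to 3.63 CPM in WD ResKCs, and the B cell list to 28.3 to 169 CPM and 9.87 to 28.8 CPM. The immediate-early and heat-shock sum had a median of 3666 CPM in CLEC4F- macs, with the highest value (8507 CPM) in replicate 1, and of 1607 CPM in WD ResKCs. The part of such cells and of these genes in the differences was not tested. Without replicate 1 the log2 fold change of Ms4a4c was -2.49, the smallest of the 12 fits that each left out 1 replicate.

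**Figure D2:**
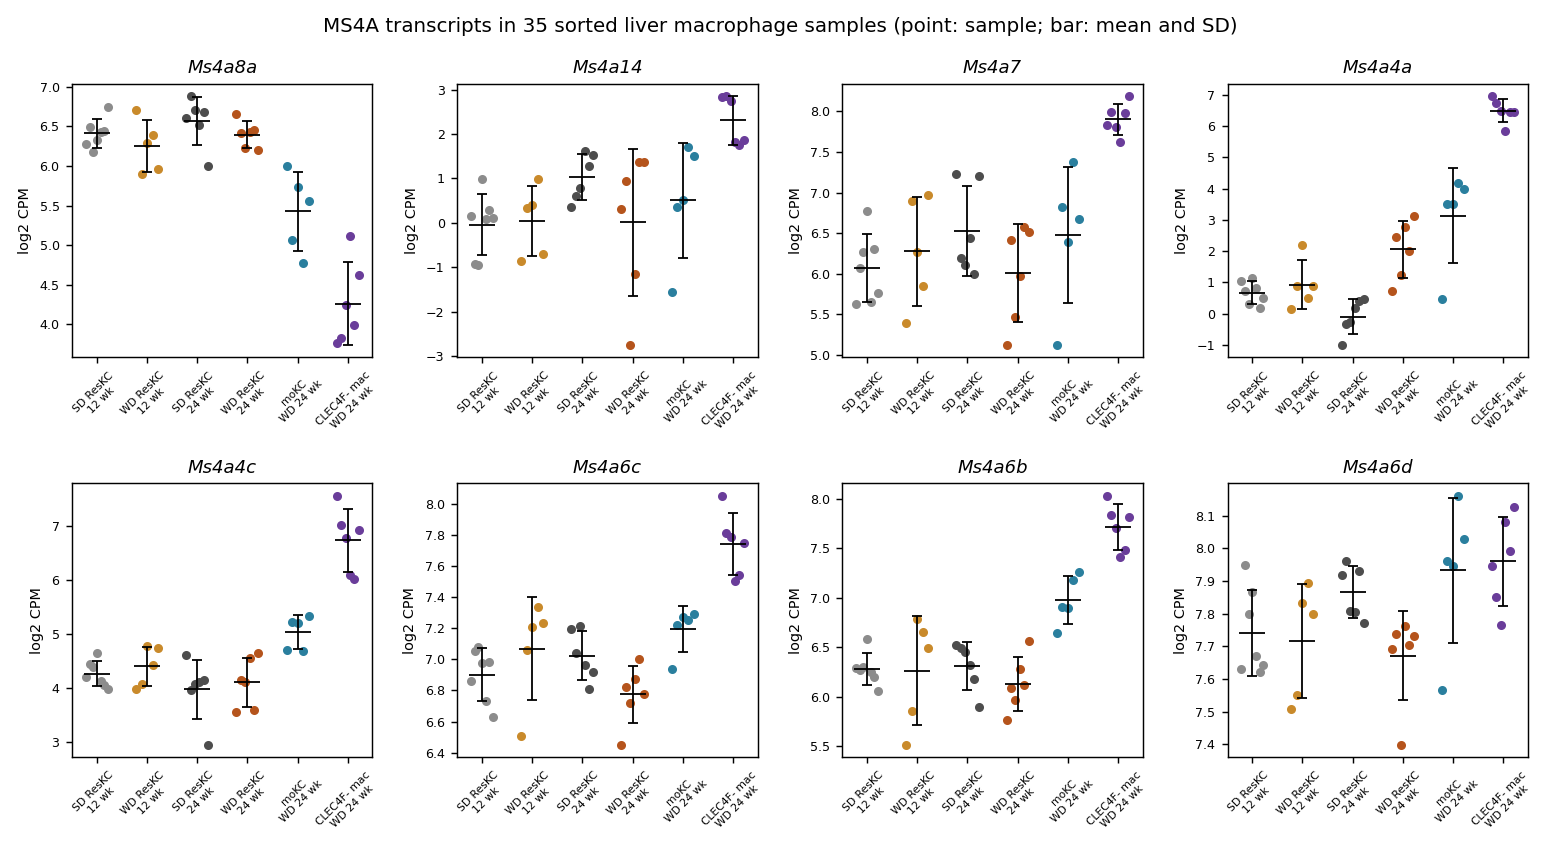
log2 CPM (prior count 2) of the 8 MS4A transcripts in all 35 samples, by group; points are samples and bars are the mean and SD of 5 to 7 samples, with a separate axis for each gene. The 6 CLEC4F- mac samples lie above the WD ResKC samples for 7 genes and below them for Ms4a8a, and moKC replicate 1 sits apart from the other 4 moKC samples for Ms4a4a at 0.46.

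The moKC means lay between those of these populations for all 8 members. For no member did the difference between WD ResKCs and moKCs pass both limits, against 1.39% of all genes, and DESeq2 and limma-voom also called none. In edgeR's test 6 of the 8 had an unadjusted p under 0.05, beside 15.9% of all genes, and 2 of these, Ms4a4a (adjusted p = 0.0743) and Ms4a6d (adjusted p = 0.0959), missed the adjusted limit. Ms4a7 (log2 fold change, ResKCs over moKCs, -0.53, SE 0.31, adjusted p = 0.422) and Ms4a14 (-0.32, SE 0.58, adjusted p = 0.861) did not differ in this test, and their samples overlapped. By adjusted p alone, Ms4a4c (log2 fold change -0.90, SE 0.25, adjusted p = 0.0373), Ms4a6b (-0.84, SE 0.17, adjusted p = 0.00266) and Ms4a6c (-0.42, SE 0.12, adjusted p = 0.0433) were lower and Ms4a8a (0.91, SE 0.21, adjusted p = 0.00916) higher in ResKCs than in moKCs, or 4 of 8 beside 2.99% of all genes. In the 11 fits that each left out 1 replicate, Ms4a6b and Ms4a8a stayed under this limit in all 11, but Ms4a4c in 4 (adjusted p up to 0.105) and Ms4a6c in 3 (up to 0.125). The 2 groups did not overlap for Ms4a4c, Ms4a6b and Ms4a8a, as was the case for 3.21% of all genes.

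Ms4a8a was at 64.0, 33.2, 53.1, 27.1 and 47.0 CPM in moKC replicates 1 to 5, all below the 73.4 CPM of the lowest WD ResKC sample. Ms4a6b was at 99.9, 120, 119, 145 and 153 CPM, all above the 94.2 CPM of the highest WD ResKC sample. Ms4a4c was at 26.0, 37.2, 36.6, 25.6 and 40.2 CPM, where the lowest sample barely exceeded the highest ResKC sample (25.0 CPM).

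Ms4a4a was at 1.23, 11.2, 11.2, 18.0 and 15.9 CPM in moKC replicates 1 to 5. Replicate 1 thus lay below all 6 WD ResKC samples and the other 4 above all of them. With all 5 samples the log2 fold change (ResKCs over moKCs) was -1.28 (SE 0.40, adjusted p = 0.0743), and without replicate 1 it was -1.58 (adjusted p = 0.0033). That sample also had the lowest Ms4a7 (34.7 CPM, others 83.9 to 165), Ms4a14 (0.194 CPM, others 1.14 to 3.10), Ms4a6b, Ms4a6c and Ms4a6d and the highest Ms4a8a of its group. Its immediate-early and heat-shock sum was 8396 CPM, where the median of its group was 2329 CPM. Its sum of the monocyte and CLEC4F- mac list was the lowest of its group, at 40.35 CPM where the median was 144.9 CPM. Of that list, Spp1, Ccr2 and Itgax were lowest in this sample, and Chil3 and Gpr183 highest. The part of either sum in its MS4A values was not tested. Without moKC replicate 1, Ms4a4a and Ms4a8a (log2 fold change 1.07) were both called between ResKCs and moKCs. Leaving out WD ResKC replicate 6 instead, Ms4a4a (-1.55) and Ms4a4c (-1.02) were called.

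Between moKCs and CLEC4F- macs, Ms4a8a was called higher in moKCs, and Ms4a4a, Ms4a4c and Ms4a7 lower, or 4 of 8 against 5.05% of all genes (2.34% higher and 2.71% lower in moKCs). By adjusted p alone 6 members differed (16.4% of all genes), with Ms4a6b and Ms4a6c added among the lower ones, and 6 did not overlap (8.16% of all genes). The log2 fold change of Ms4a4a was -3.01 (SE 0.41, adjusted p = 3.14e-06), of Ms4a4c -1.78 (SE 0.25, adjusted p = 4.71e-06), of Ms4a7 -1.27 (SE 0.32, adjusted p = 0.00452) and of Ms4a8a 1.15 (SE 0.21, adjusted p = 0.000107), the last falling to 0.99 without moKC replicate 1. The Ms4a8a values of these groups overlapped, and its difference of mean log2 CPM was 1.58 within the first naming scheme (2 against 3 samples, no overlap) and 0.78 within the second (3 against 3 samples, with overlap). For Ms4a4a, whose pooled samples did not overlap, the difference was -4.75 and -2.36. Ms4a6d gave no call (log2 fold change -0.02, SE 0.09, adjusted p = 0.932), with a sign that turned in several alternative fits. Ms4a14 (-1.60, SE 0.58, adjusted p = 0.0538) missed the limit although its groups did not overlap. These comparisons share the moKC, WD ResKC or CLEC4F- mac samples and are not independent of each other. The monocyte and CLEC4F- mac list summed to 40.35 to 174.8 CPM in moKCs and 623 to 1948 CPM in CLEC4F- macs. For conventional dendritic cells the sums were 11.45 to 31.3 and 21.2 to 172 CPM, and for T and NK cells 1.61 to 7.64 and 5.05 to 19.2 CPM. Median hepatocyte and sinusoidal endothelial sums were higher in moKCs (2017 and 545 CPM against 1517 and 407 CPM). The part of such cells in these differences was not tested.

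On the log2 CPM scale from WD ResKCs (0%) to CLEC4F- macs (100%), the moKC mean stood at 21.5% for Ms4a14, 24.2% for Ms4a4a, 24.5% for Ms4a7, 35.4% for Ms4a4c, 43.5% for Ms4a6c, 45.5% for Ms4a8a and 53.5% for Ms4a6b. Leaving out moKC replicate 1 and CLEC4F- mac replicate 4, these were 42.1%, 38.1%, 41.2%, 36.7%, 47.9%, 48.4% and 56.6%, all between the 2 populations. The positions come from group means and carry no measure of spread. For Ms4a4a, Ms4a6d, Ms4a7 and Ms4a14 the difference between WD ResKCs and moKCs missed the adjusted limit. For Ms4a6d, where the span itself was only 0.29 on the log2 scale, the position was 90.6% and moved to 133% without those 2 samples.

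**Figure D3:**
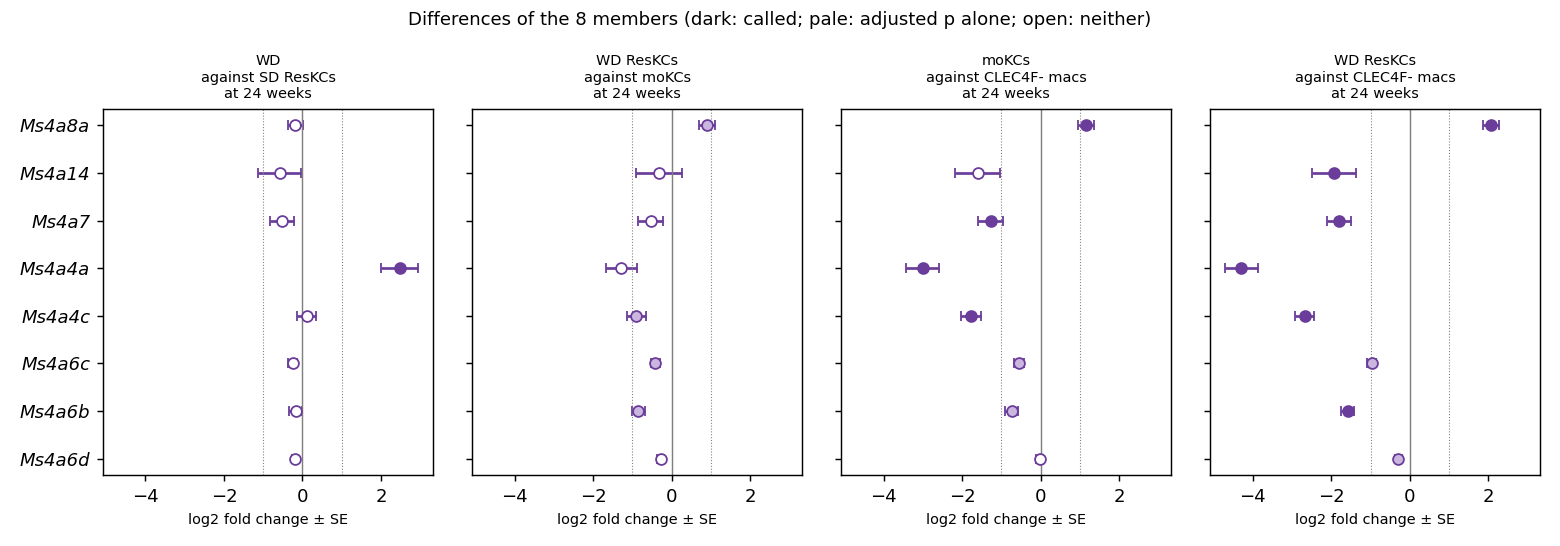
log2 fold change ± SE (edgeR, first group over second) of the 8 MS4A transcripts in 4 comparisons at 24 weeks; dark points passed both limits, pale points adjusted p alone and open points neither, with dotted lines at a 2-fold difference. Ms4a4a at 2.47 is the single dark point for diet, and Ms4a8a is the only member right of 0 in each comparison between populations.

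Between the diets, few members differed in ResKCs. At 12 weeks none of the 8 passed a limit, and none had an unadjusted p under 0.05 in edgeR's test, as 8.73% of all genes had. DESeq2 and limma-voom called none of the 8 either. Across all genes the share called by edgeR was 0.0%, and 0.0373% passed in edgeR by adjusted p alone. The log2 fold changes (WD over SD) ran from -0.14 for Ms4a8a to 0.44 for Ms4a4a. At 24 weeks Ms4a4a was called higher on WD, which made 1 of 8 beside 3.35% of all genes called in either direction and 2.38% called higher, and it was also the single member by adjusted p alone (8.71% of all genes).

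Ms4a4a was at 0.351, 0.828 and 1.23 CPM (lowest, median and highest of 6) in SD ResKCs at 24 weeks and at 1.52, 4.61 and 8.67 CPM in WD ResKCs of the same time. These values rest on 5 to 17 counts per SD sample and 21 to 110 counts per WD sample. The groups did not overlap, the means differed by 5.58-fold, and the log2 fold change was 2.47 (SE 0.47, adjusted p = 0.00122, edgeR). With limma-voom the adjusted p was 0.156. Over the 10 other settings, limma-voom among them, the log2 fold change was 2.23 to 2.60. On WD the ResKC mean remained at 0.0511 of the CLEC4F- mac mean. Among SD ResKCs at 12 weeks it was at 0.996 to 2.04 CPM, and WD ResKCs at 12 weeks were at 0.973, 1.71, 4.48, 1.28 and 1.70 CPM. Without replicate 3 of that group, the one at 4.48 CPM, the log2 fold change at 12 weeks turned from 0.44 to -0.07. The diet effect was larger by 2.03 on the log2 scale (SE 0.67) at 24 than at 12 weeks, a difference that missed the limit in edgeR's test (adjusted p = 0.155, unadjusted p = 0.00488). No member was called for this difference by edgeR, DESeq2 or limma-voom (0.0596% of all genes by edgeR), and 2 of the 8, Ms4a4a and Ms4a6c, had an unadjusted p under 0.05, beside 14.1% of all genes.

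Of the WD ResKC samples at 24 weeks, replicates 1 and 3 had the lowest Ms4a4a (1.52 and 2.23 CPM) and replicate 6 the highest. All SD samples at 24 weeks carried the first naming scheme. Against them, the 3 WD samples of that scheme alone were at 1.52, 5.37 and 2.23 CPM, a difference of mean log2 CPM of 1.58. The sum of the 6 monocyte and CLEC4F- mac genes was 7.36 to 20.9 CPM in SD ResKCs (1 gene at 0 in all samples) and 37.1 to 122.5 CPM in WD ResKCs, with the highest value again in replicate 6. Spp1, the osteopontin gene of that list, averaged 1.95 CPM in SD ResKCs, 14.8 CPM in WD ResKCs and 373 CPM in CLEC4F- macs. The part of CLEC4F- macs in the Ms4a4a of the WD ResKC samples was not tested. The immediate-early and heat-shock list also differed between the diets, with a median sum of 6734 CPM on SD and 1607 CPM on WD. With the mean log2 CPM of this list as a covariate the log2 fold change of Ms4a4a was 2.60.

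The other 7 members did not pass the limits between diets at 24 weeks. Ms4a6d (log2 fold change -0.19, SE 0.09, adjusted p = 0.157) was lower in all 6 WD samples (169 to 217.05 CPM) than in the SD samples (218.21 to 249 CPM), so that 2 members did not overlap, as for 4.11% of all genes. Ms4a6c differed by -0.25 (SE 0.11, adjusted p = 0.166). Ms4a7 (-0.52, SE 0.30, adjusted p = 0.29) ranged from 63.8 to 150 CPM on SD and from 34.8 to 95.4 CPM on WD with overlap. Ms4a8a (-0.18, SE 0.19, adjusted p = 0.602) remained within 63.8 to 118 CPM on SD and 73.4 to 101 CPM on WD. Between 12 and 24 weeks on one diet no member was called (0.0% of all genes on SD and 0.693% on WD), and unadjusted p-values under 0.05 were about as frequent as in all genes, for 1 of 8 on SD (Ms4a14, beside 9.0% of all genes) and 2 of 8 on WD (Ms4a4a and Ms4a6c, beside 18.8%). DESeq2 and limma-voom called none of the members between time points.

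The rest of the family was mostly silent. Of the 19 symbols beginning with Ms4a and a digit in the files, 11 were not members, and 3 of these, Ms4a1, Ms4a4b and Ms4a4d, passed the filter. Ms4a3, Ms4a5, Ms4a10, Ms4a12, Ms4a13 and Ms4a18 had 0 counts in all 35 samples, and Ms4a2 and Ms4a15 never exceeded 2 counts in a sample. Ms4a1 (CD20) was at 36.1 CPM in CLEC4F- mac replicate 1, the sample with the highest B cell sum, and at 1.32 to 4.72 CPM in the other 5, against 1.05 to 3.15 CPM in WD ResKCs. Its log2 fold change between WD ResKCs and CLEC4F- macs was -2.19 (adjusted p = 0.00247) with replicate 1 and -0.78 (adjusted p = 0.152) without it. Ms4a4b, known from T cells, was at 3.87 to 12.6 CPM in CLEC4F- macs, again with the highest value in replicate 1, and at 0.580 to 2.15 CPM in WD ResKCs (log2 fold change -2.02, SE 0.47, adjusted p = 0.000886), and the call stood without replicate 1 (-1.64). The sum of the T and NK cell list also did not overlap between these groups, as given above, and its part in Ms4a4b was not tested. Ms4a4d was at 0.149 to 4.04 CPM over all samples and was called in no comparison.

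Tmem176a and Tmem176b encode 4-pass membrane proteins related to the MS4A family and overlap each other on opposite strands of chromosome 6, so reads of the shared stretch may be assigned to either. Both fell in ResKCs on WD at 24 weeks. Tmem176b was at 512, 581 and 1041 CPM on SD and 122, 179 and 419 CPM on WD (log2 fold change -1.64, SE 0.26, adjusted p = 0.000121). Tmem176a was at 135, 160 and 344 CPM on SD and 37.9, 50.5 and 113 CPM on WD (-1.69, SE 0.29, adjusted p = 0.000327). The diets did not overlap at 24 weeks for either gene. After 12 weeks on the diets Tmem176b differed by -0.15 (adjusted p = 0.905) and Tmem176a by -0.02 (adjusted p = 0.991) on the log2 scale, and the interaction of diet with time missed the limit for both (adjusted p = 0.0598 and 0.0585). Between WD ResKCs at 24 and at 12 weeks both were called lower at 24 weeks (0.693% of all genes called), Tmem176b by a log2 fold change of -1.31 (SE 0.27, adjusted p = 0.00791) and Tmem176a of -1.39 (SE 0.30, adjusted p = 0.0115), with overlap between the samples. Both were also called lower in WD ResKCs than in CLEC4F- macs, with overlap between the samples.

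**Figure D4:**
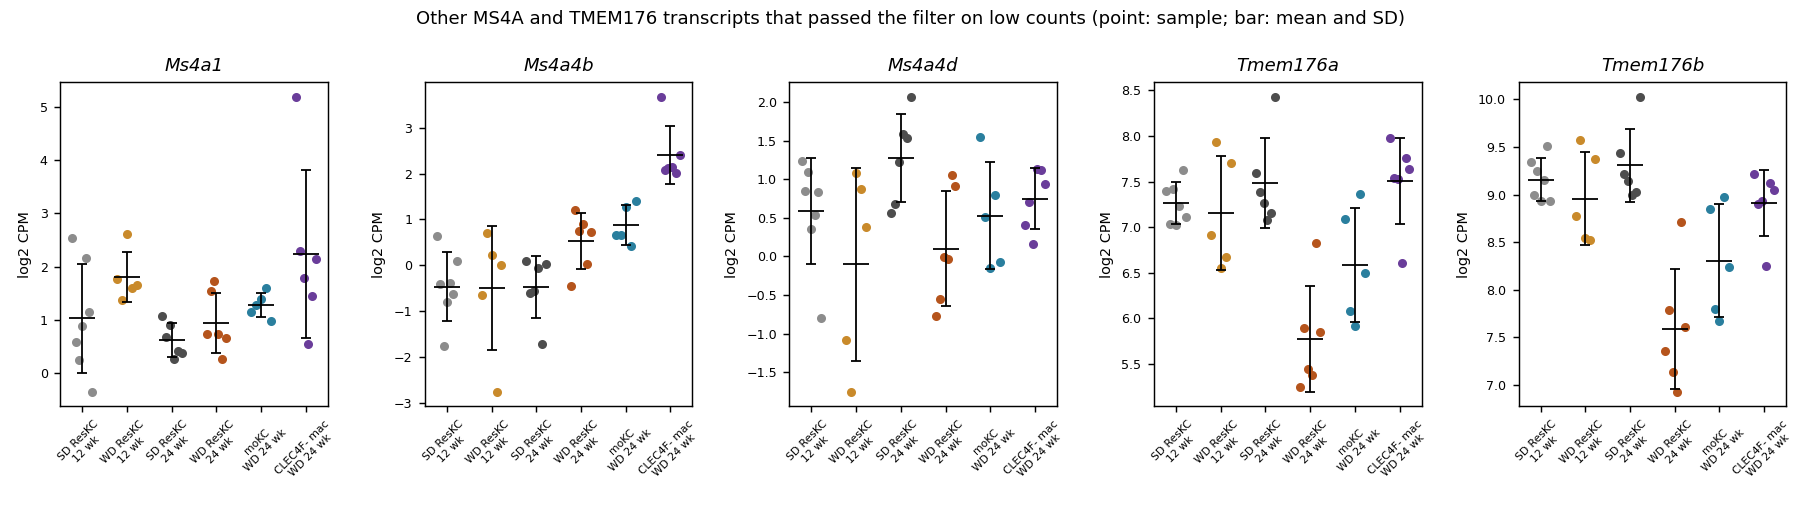
log2 CPM (prior count 2) of the 3 other MS4A transcripts and the 2 TMEM176 transcripts that passed the filter on low counts, in all 35 samples; points are samples and bars are the mean and SD of 5 to 7 samples. Tmem176a and Tmem176b are lower in the 6 WD ResKC samples at 24 weeks than in the 6 SD samples, and 1 CLEC4F- mac sample sets the mean of Ms4a1.

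Of 9 genes whose products have been linked to MS4A proteins, Tnfrsf18 and Fcer1a did not pass the filter. Trem2 was at 18.1, 27.5 and 61.8 CPM in SD ResKCs and 69.2, 85.6 and 216 CPM in WD ResKCs at 24 weeks (log2 fold change 1.58, SE 0.34, adjusted p = 0.00316), without overlap, and at 244 to 383 CPM in CLEC4F- macs (ResKCs over CLEC4F- macs -1.52, adjusted p = 0.000446). Among the 7 that passed, it was the single call for diet at 24 weeks (3.35% of all genes), and by adjusted p alone 5 of the 7 differed (8.71% of all genes), 3 higher and 2 lower on WD. Clec7a, the gene of Dectin-1, averaged 361 ± 88.0 CPM (SD, n = 6) on SD and 572 ± 163 CPM (n = 6) on WD (log2 fold change 0.66, adjusted p = 0.031) and 1199 ± 148 CPM (n = 6) in CLEC4F- macs (-1.07, adjusted p = 6.4e-05). The signalling adaptors Tyrobp (-0.31, adjusted p = 0.0251) and Fcer1g (-0.28, adjusted p = 0.0292) were lower on WD at 24 weeks, and the kinase gene Syk was higher (0.25, adjusted p = 0.0494), by adjusted p alone. Nlrp3, an inflammasome sensor, passed no limit in any comparison, and Vsig4 followed the KC populations as given above. Counted together, 3 of the 7 were called between WD ResKCs and CLEC4F- macs (Trem2 and Clec7a lower and Vsig4 higher in ResKCs), beside 10.4% of all genes. Between moKCs and CLEC4F- macs 2 were called (5.05% of all genes), and none between ResKCs and moKCs (1.39% of all genes), where 1 of the 7 (Clec7a) had an unadjusted p under 0.05 in edgeR's test, near the 15.9% of all genes.

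For the 4 members whose 6 group means spanned more than 2 on the log2 CPM scale, the genes with the nearest centred profile over the 6 groups were listed, as a description without a test. For Ms4a4a (span 6.58) these were Il7r, H2-M2 and Osm, with root mean square differences of 0.14, 0.21 and 0.31. H2-M2 averaged 1.74 CPM in SD ResKCs at 24 weeks, 7.53 in WD ResKCs, 15.8 in moKCs and 99.6 in CLEC4F- macs. For Ms4a4c (span 2.76) they were Cd69, Adam19 and Mmp14 (0.13 to 0.18), and for Ms4a14 (span 2.34) Ccl17, Havcr2 and Fcgr2b (0.18 to 0.19). For Ms4a8a (span 2.30) they were Crip2, Tspan9 and Nxf7 (0.08 to 0.10), of which Crip2 averaged 172 CPM in WD ResKCs, 97.5 in moKCs and 39.2 in CLEC4F- macs. The 4 profiles share the same samples and rest on 6 points each.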

How the data were processed

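The deposited files held 1 table of raw counts per gene symbol for each of the 35 samples. Per the study's methods and the submitters' processing notes, the authors checked single reads with FastQC 0.11.9, aligned them to mm10 with HISAT2 2.2.0 (SAMtools 1.10) and counted them with featureCounts 2.0.0. Strand handling and the annotation are not given in the sources used here. Of the 54735 symbols, 54106 were found in GENCODE M21. Groups came from the sample titles.

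Counts were analysed with edgeR 4.0.16 in R 4.3.3, using TMM scaling, 6 group means and the quasi-likelihood test on the 13421 genes above 1 CPM in at least 5 samples, with Benjamini-Hochberg adjustment. Calls required more than a 2-fold difference (1 on the log2 scale) together with an adjusted p below 0.05. Printed CPM are TMM-scaled, SE is the absolute log2 fold change divided by the root of the F statistic, and log2 CPM used a prior count of 2. All 8 members are named, as are the relatives and linked genes that passed the filter, and likeness took the 3 nearest profiles for members spanning over 2. In simulated counts with 200 genes changed 4-fold among 13421, 87.5% were recovered for diet at 24 weeks and 91.5% for ResKCs against CLEC4F- macs. The share was 86.5% for moKCs against CLEC4F- macs, 82% for WD ResKCs against moKCs and 77.5% for the difference of the diet effects. Sequences were handled with Biopython 1.88. Alternatives were DESeq2 1.42.0, limma 3.58.1 (voom), library size scaling without TMM, the unfiltered table, a robust dispersion, the compared groups alone and other limits. Further ones were a replicate block, 3 covariates and each replicate left out. The covariates were the mean log2 CPM of the hepatocyte list, that of the immediate-early and heat-shock list, and the naming scheme. Chosen after seeing the data was leaving out moKC replicate 1 and CLEC4F- mac replicate 4 together. The members and gene lists were chosen with earlier results of these data known.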

Additional observations from a re-analysis of the deposited data

Results flagged for a closer look

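Within each group of 5 to 7 samples, the gap between an extreme sample and its neighbour was compared with the range of the group (Dixon's criterion) for each of the 8 members, or 48 sets of samples, of which chance marks about 1 in 20. In 3 sets 1 sample stood apart. Ms4a4a in moKC replicate 1 was at 0.459 log2 CPM, with the other 4 samples at 3.50 to 4.18. Ms4a6c in the same sample was at 6.93 log2 CPM, with the others at 7.22 to 7.29. Ms4a6d in replicate 3 of the WD ResKCs at 24 weeks was at 7.40 log2 CPM, with the others at 7.69 to 7.76. The cause of these values was not tested.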

How the results depend on the processing

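The number of members called moved by more than 1.5 times in few settings. For diet at 24 weeks it was 1 and went to 0 with limma-voom. For WD ResKCs against moKCs it was 0, and became 4 by adjusted p alone, 2 without both moKC replicate 1 and CLEC4F- mac replicate 4, and 0 to 2 in the fits that each left out 1 replicate, with 2 reached without WD ResKC replicate 6 (Ms4a4a and Ms4a4c) and without moKC replicate 1 (Ms4a4a and Ms4a8a). For moKCs against CLEC4F- macs it was 4, and 2 at the stricter limits of 1.5 and 0.01. Between WD ResKCs and CLEC4F- macs, the 6 called members were called in all 11 other fits and all 12 fits without 1 replicate, and Ms4a6c was called in addition in 2 and 3 of these. Ms4a8a between moKCs and CLEC4F- macs was at 0.99 without moKC replicate 1, and Ms4a14 passed both limits there in 6 of 11 other fits. The sign of uncalled log2 fold changes turned for Ms4a6d between moKCs and CLEC4F- macs (0.0150 with the hepatocyte covariate, 0.0859 without both samples, -0.0787 to 0.0619 without 1 replicate), Ms4a4c between diets at 24 weeks (-0.0370 to 0.257 without 1 replicate), Ms4a14 between ResKCs and moKCs (-0.617 to 0.0140) and Ms4a4a between diets at 12 weeks (-0.0719 to 0.613). The causes were not tested. Scaling by library size alone moved the median of all genes between WD ResKCs and CLEC4F- macs from -0.02 to -0.14 and changed no direction of a member. Over all genes, the 450 calls for diet at 24 weeks became 153 with the immediate-early and heat-shock covariate, 270 with the naming scheme and 293 with limma-voom. At 12 weeks the 0 calls became 16 with DESeq2, 1 with limma-voom, 2 with the immediate-early and heat-shock covariate, 2 with the naming scheme and 67 with the replicate block. The 0 for time on SD became 8 with DESeq2. The 93 calls for time on WD became 46 with the naming scheme and 57 without the filter, and the 8 for the interaction of diet and time became 3 to 50.

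Whether replicate numbers pair the samples could not be decided. The mean correlation of same-numbered samples was -0.11 to 0.12 over the comparisons. It was 0.117 between WD ResKCs and CLEC4F- macs (6 pairs, 0.0242 to 0.263). A mean of 0.118 was also found between WD ResKCs at 24 and at 12 weeks, which cannot come from the same mice. This measure therefore cannot tell paired from unpaired samples. With the replicate block the log2 fold change of Ms4a4a for diet at 24 weeks was 2.43, 6 members were called between WD ResKCs and CLEC4F- macs, and 5 instead of 4 between moKCs and CLEC4F- macs. Between WD ResKCs and moKCs, Ms4a4c (adjusted p = 0.0807) and Ms4a6c no longer passed the limit on adjusted p with the block. Ms4a4c also missed it with limma-voom, and Ms4a6c without the filter and with the immediate-early and heat-shock covariate (adjusted p = 0.0737). Depth limits Ms4a14 and the SD values of Ms4a4a, which rest on few counts.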
